A study of Drosophila melanogaster with 47 samples.

Results

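The nuclear genes for subunits of the mitochondrial respiratory chain and of ATP synthase were followed in midguts, and in progenitor cells sorted from midguts, of adult female Drosophila melanogaster that had been mated or kept unmated. The genes were chosen by name, as every gene whose symbol begins with ND- (complex I), Sdh (complex II), UQCR- (complex III), COX (complex IV) or ATPsyn (complex V, the ATP synthase). This rule uses no measured value, but earlier results of these data were known when it was set. This gave 70 of the 11964 genes listed in any of the 3 count tables used, with 36 genes of complex I, 5 of complex II, 7 of complex III, 9 of complex IV and 13 of complex V. Of the 70, 63 were listed in all 3 tables, 62 of these passed the filter on low counts in every table, and 6 genes entered no test. The names leave out a few subunits, among them blw (the alpha subunit of ATP synthase), RFeSP, Cyt-c1 and ox of complex III, the electron carrier Cyt-c-p and the 13 subunits encoded in mitochondrial DNA (mtDNA), which were described beside the members.

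The first pair of groups were mated and unmated progenitors, FACS-sorted esg-positive cells (gut stem cells and their young daughters) of the genotype esg-Gal4, from 100 to 150 guts per library. The second pair were mated and unmated whole guts of the same genotype, 15 guts per library. The third set were guts of the genotype Actin-Gal4/ EcR RNAi, mated and unmated, and guts of their Actin-Gal4 controls, mated and unmated. In these flies the driver Actin-Gal4 is active throughout the body and not in the gut alone, and EcR, the receptor of the steroid hormone ecdysone, is the RNAi target. Flies of all 4 Actin groups, controls included, spent 5 days at 29 °C, where the RNAi is expressed, and were then mated or left unmated for 48 h at 25 °C. Mating lasted 48 h in the other groups too, and unmated females had been kept from males since eclosion. Each group had 4 libraries of poly(A)-selected RNA, each a pool of guts, so that p-values measure the spread between such pools.

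Complexes I to IV pass electrons from NADH and succinate to oxygen, and complexes I, III and IV pump protons out of the mitochondrial matrix as they do so. Complex V lets the protons back in through its membrane part, Fo, and uses their flow to turn the rotor of its catalytic head, F1, which makes ATP. Most subunits are encoded in the nucleus and are assembled with the few that mtDNA encodes. In the fly midgut, how much pyruvate the intestinal stem cells take into their mitochondria is known to affect how often they divide.

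Total counts were 31362803 to 44260161 per library in progenitors, 13718418 to 24538084 in whole guts and 19383292 to 29820841 in Actin guts. Levels are given as CPM, counts scaled to library size, after correction by the trimmed mean of M values (TMM) within each table, and log2 fold changes and their standard errors (SE) come from edgeR's quasi-likelihood test. CPM of different tables are not on 1 scale. Levels in progenitors and whole guts can be compared only on the joint scale described below. A gene was called where its p-value, adjusted by the Benjamini-Hochberg method over all genes of the fit, was under 0.05. EcR itself was not lower in the libraries labelled EcR RNAi. It had 14.72, 12.46, 12.46 and 11.8 CPM in unmated guts labelled EcR RNAi, against 7.17, 9.47, 7.43 and 8.23 CPM in unmated Actin controls (log2 fold change 0.67, SE 0.11, adjusted p = 0.00125), and 8.22, 9.62, 11.02 and 9.39 CPM in mated guts labelled EcR RNAi, against 7.24, 7.90, 9.45 and 8.55 CPM in mated Actin controls (log2 fold change 0.21, SE 0.11, adjusted p = 0.34). All directions below that involve these libraries rest on their labels. All 10 progenitor markers were higher in progenitors than in whole guts in both mating states, and 8 of 9 enterocyte markers in unmated and 9 of 9 in mated libraries were lower. Libraries that stood apart were unmated progenitor library 1, in which the members took 0.907% of gene counts against 1.15 to 1.22% in the other unmated progenitor libraries, unmated whole gut library 2, with the highest summed level of its group, and, among guts labelled EcR RNAi, mated library 3 and unmated library 1, with the highest and the lowest sum.

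The members were abundant in every group. All members listed in a table together took between 1.23 and 1.44% of gene counts in mated progenitors and 0.907 to 1.22% in unmated progenitors. The shares were 1.19 to 1.39% in mated whole guts and 1.13 to 1.29% in unmated whole guts. In the Actin set the shares were 1.38 to 1.56% in mated guts labelled EcR RNAi, 1.23 to 1.34% in unmated guts labelled EcR RNAi, 1.46 to 1.52% in mated Actin controls and 1.29 to 1.34% in unmated Actin controls. Summed over its 11 genes, complex V was 6790.4, 6092, 7590.04 and 6769 CPM in mated guts labelled EcR RNAi, against 4927, 5487, 5511 and 5669 CPM in unmated guts labelled EcR RNAi, and it was 5975, 6643, 6770.5 and 7239 CPM in mated Actin controls, against 5269, 5483, 5686 and 5689 CPM in unmated Actin controls. All 4 mated libraries stood above all 4 unmated libraries in both genotypes. In the other material the sums of complex V overlapped between mating states, with 5598 to 6162 CPM in mated progenitors and 5264 to 6250.1 CPM in unmated progenitors, and 4245 to 5419 CPM in mated whole guts and 4713 to 5942 CPM in unmated whole guts.

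**Figure D1:**
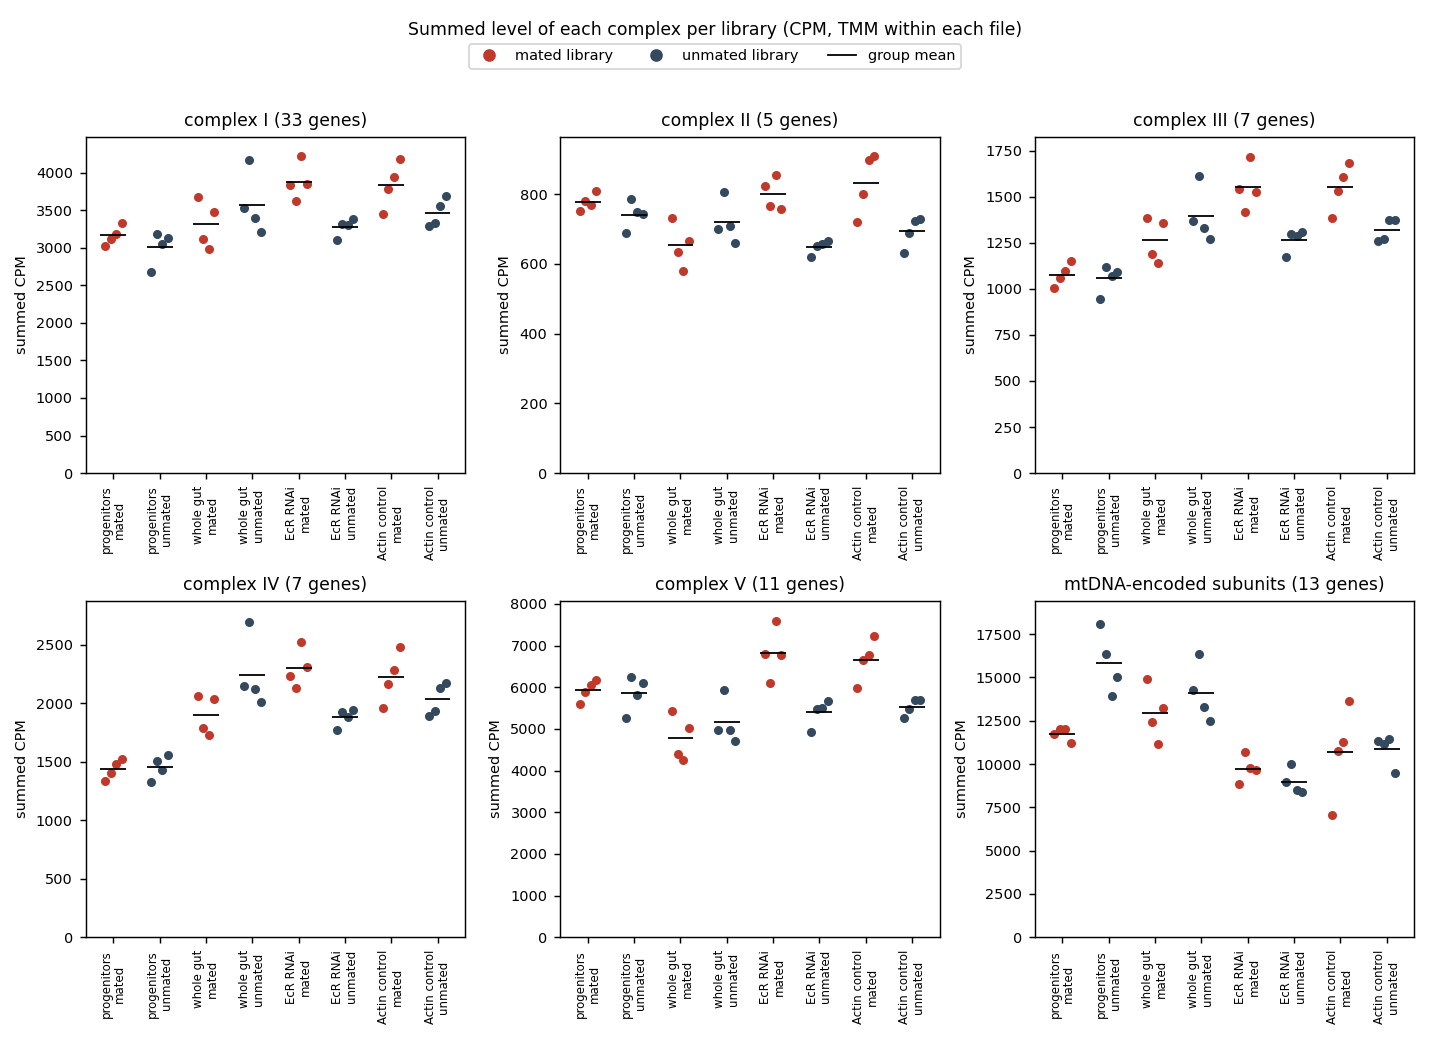
Summed level of the genes of each complex in every library (vertical axes, CPM scaled by TMM within each table, starting at 0), by group, with 1 point per library and a bar at the group mean. In complexes I to V the means of mated Actin guts, labelled EcR RNAi or control, lie above those of their unmated groups, while the mtDNA-encoded sums of mated progenitors, 11189 to 12024 CPM, all lie below those of unmated progenitors, 13930.1 to 18114 CPM.

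Levels were compared between genes per kilobase of annotated exon (BDGP6.54 annotation, all transcripts merged). ATPsynC, which forms the proton-driven rotor ring of Fo, was the highest member in every group, at 1056 and 1048 CPM per kb in mated and unmated progenitors and 691 and 774 CPM per kb in mated and unmated whole guts. ATPsynbeta, the catalytic subunit of F1, was at 709.8 CPM per kb in unmated progenitors, 565 in unmated whole guts, 693 in unmated guts labelled EcR RNAi and 741 in unmated Actin controls. These values rank genes within a group and do not compare progenitors with whole guts. On a joint scale ATPsynC averaged 1608 CPM in unmated progenitors and 1760 CPM in unmated whole guts. In mated ones it averaged 1641.5 and 1549 CPM. ATPsynbeta averaged 1392 CPM in unmated progenitors and 1641 CPM in unmated whole guts on that scale. Within complex IV, COX5A was highest, at 356 CPM per kb in unmated progenitors and 572 in unmated whole guts, and COX7C lowest, at 129.5 and 197. Among the accessory subunits of complex I, which surround its electron-carrying core, ND-MLRQ had 191 CPM per kb in unmated progenitors and 346, the highest of complex I, in unmated whole guts. In unmated progenitors ND-ACP, the mitochondrial acyl carrier protein, was higher, at 201 CPM per kb. ND-AGGG was the lowest of the tested accessory subunits, at 30.7 and 40.6. The mammalian counterpart of ND-MLRQ is now placed in complex IV. Sdhaf3, an assembly factor of complex II and not a subunit, stayed at 7.08 and 4.21 CPM per kb in the same 2 groups.

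Copies of a subunit gene with names ending in L were far below the gene they resemble. UQCR-11L had 42 counts against 10971 of UQCR-11 over the 4 mated progenitor libraries, and 106 against 7696 over the 4 unmated ones. In whole guts it held 5.04 to 8.87% of the counts of both genes together in mated libraries, against 1.82 to 5.38% in unmated ones. ATPsynbetaL, a copy of the catalytic subunit that was listed in the progenitor table only, had 128 counts over mated and 313 over unmated progenitor libraries. The genes that entered no test were ND-49L and ND-B8, listed in the whole gut table only, and COX4L, COX5BL, ND-51L2 and ATPsynepsilonL, listed in the progenitor table only. Their group means were between 0.0362 CPM (ND-49L and ND-B8 in unmated whole guts) and 0.349 CPM (COX5BL in unmated progenitors). ND-B8 is not a copy but an accessory subunit of complex I. Its exons overlap those of Gs1l on the opposite strand, and the strand setting of the counting is not known. Whether reads of ND-B8 were lost in the counting was not tested. ND-51L1 was tested in whole guts and Actin guts but not in the progenitor table alone.

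In guts labelled EcR RNAi, subunits of all 5 complexes were higher after mating. Of 63 members tested, 44 rose and 0 fell, where 5.37% of all 9036 genes tested rose and 5.41% fell, and 53 had mated libraries that all lay above all unmated ones, where 9.24% of all genes did. The median log2 fold change of the members was 0.29, against a median of 0.00 over all genes, and 62 of 63 members were above 0, as were 49.3% of all genes. By complex, 22 of 33 genes of complex I rose, 3 of 5 of complex II, 5 of 7 of complex III, 4 of 7 of complex IV and 10 of 11 of complex V. In this comparison, as in all that follow on bulk material, fewer cells of a type and less RNA per cell cannot be told apart.

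The highest log2 fold change was that of the small complex III subunit UQCR-6.4. It had 64.7, 63.2, 77.9 and 63.3 CPM in mated guts labelled EcR RNAi, against 47.7, 47.9, 50.6 and 48.2 CPM in unmated guts labelled EcR RNAi (log2 fold change 0.47, SE 0.07, adjusted p = 0.00157). The groups did not overlap, and mated library 3 stood above the other 3. UQCR-Q, another small subunit of complex III, was next, with 156, 149.97, 187 and 163 CPM in mated guts labelled EcR RNAi, against 111, 131, 128 and 131 CPM in unmated guts labelled EcR RNAi (log2 fold change 0.39, SE 0.10, adjusted p = 0.0197), again without overlap. The core protein UQCR-C1, 1 of a pair that faces the matrix, had 648, 581, 712 and 631 CPM in mated guts labelled EcR RNAi, against 491, 543, 552 and 557 CPM in unmated guts labelled EcR RNAi (log2 fold change 0.26, SE 0.07, adjusted p = 0.0337). All of its mated libraries lay above all unmated ones, whereas its partner UQCR-C2 had a log2 fold change of 0.25 and missed the threshold (adjusted p = 0.0572).

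In complex I, 18 of 25 accessory subunits and 4 of 7 core subunits rose. The accessory subunit ND-13A (2L:5099177-5100288, minus strand, BDGP6.54) had 55.0, 51.6, 63.8 and 56.2 CPM in mated guts labelled EcR RNAi, against 44.4, 43.0, 43.0 and 44.4 CPM in unmated guts labelled EcR RNAi (log2 fold change 0.37, SE 0.07, adjusted p = 0.00411), with no overlap. The accessory subunit ND-15 had 95.4, 94.3, 101 and 102 CPM in mated guts labelled EcR RNAi, against 76.3, 79.4, 79.2 and 76.0 CPM in unmated guts labelled EcR RNAi (log2 fold change 0.34, SE 0.06, adjusted p = 0.00615), and its 2 groups were also apart. Its exons overlap those of CG3436 on the same strand, as do those of UQCR-Q with CG46525 and those of COX6B with CG18809, so reads may be shared. UQCR-6.4, ND-13A and ATPsynbeta overlap POSH, CG4230 and CG11076 on the opposite strand, and the strand setting of the counting is not known. Among the core, the iron-sulphur subunits ND-23, ND-24 and ND-20 and the subunit ND-30 rose, with log2 fold changes of 0.32, 0.27, 0.23 and 0.25. The flavin-bearing ND-51, which takes electrons from NADH, was at 0.16, the iron-sulphur subunit ND-75 at 0.17 and ND-49, at the ubiquinone site, at 0.15, and none of these 3 was called (adjusted p = 0.147, 0.171 and 0.17).

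In complex II, SdhA, the flavoprotein that oxidises succinate, had 368, 329.5, 380.3 and 324 CPM in mated guts labelled EcR RNAi, against 268, 287, 279.9 and 297 CPM in unmated guts labelled EcR RNAi (log2 fold change 0.31, SE 0.09, adjusted p = 0.0349). Its iron-sulphur partner SdhB had 217, 218, 223 and 198 CPM in mated guts labelled EcR RNAi, against 171, 169.9, 172 and 169 CPM in unmated guts labelled EcR RNAi (log2 fold change 0.33, SE 0.08, adjusted p = 0.0131). Both genes had every mated library above every unmated one. Of the membrane anchors, SdhD rose (log2 fold change 0.36, SE 0.08, adjusted p = 0.0152) and SdhC was at 0.23 (adjusted p = 0.0907). In complex IV, COX5A had 423, 418, 489 and 456 CPM in mated guts labelled EcR RNAi, against 342, 373, 355 and 366 CPM in unmated guts labelled EcR RNAi (log2 fold change 0.31, SE 0.07, adjusted p = 0.014), without overlap, and COX5B, COX7C and COX8 rose by log2 fold changes of 0.28, 0.33 and 0.28. COX4, COX6B and COX7A had values of 0.25, 0.29 and 0.29 and were not called.

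In ATP synthase, all 3 tested F1 subunits, 3 of 4 subunits of the peripheral stalk, which holds F1 still, and all 4 Fo subunits rose, and the log2 fold changes of the 11 genes ran from 0.27 to 0.36. ATPsynbeta (4:1031484-1034917, plus strand) had 2140.4, 1799.95, 2329 and 2060.3 CPM in mated guts labelled EcR RNAi, against 1475, 1667, 1723 and 1746 CPM in unmated guts labelled EcR RNAi (log2 fold change 0.33, SE 0.09, adjusted p = 0.0224). ATPsynC had 2062, 1884, 2339.9 and 2084 CPM in mated guts labelled EcR RNAi, against 1471, 1659.97, 1648 and 1727 CPM in unmated guts labelled EcR RNAi (log2 fold change 0.36, SE 0.08, adjusted p = 0.0131). Neither gene's groups overlapped. ATPsynO, which joins the stalk to F1, was the 1 gene of complex V not called, at 0.29 (adjusted p = 0.0576).

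How many members were called depended on single libraries and on scaling. Leaving out unmated library 1 left 5 of the 44 called (ATPsynF, ND-13A, ND-15, SdhB and UQCR-6.4), and leaving out mated library 3 left 10. Without mated library 1 or 4 there were 23 and 24 left, and without unmated library 2 or 4 there were 19 and 27. With library totals in place of TMM, chosen after seeing the data, 17 were called. The members' median was then 0.18, beside -0.10 over all genes. Relative to all genes it was 0.29 either way, but scaling shifts all genes of a library together, so this value could hardly change. Summed visceral muscle markers lay at 2747 to 3792 CPM in mated guts labelled EcR RNAi, against 2150.1 to 2901 CPM in unmated ones, and summed enterocyte markers at 54719 to 73869.7 CPM in mated ones, against 48240.3 to 57104 CPM in unmated ones, with 1 of 13 muscle markers higher and 1 of 9 enterocyte markers lower. Summed heat shock genes lay between 817 and 1238 CPM in mated guts labelled EcR RNAi, against 528 to 696 CPM in unmated ones, without overlap, with 1 of 12 called higher and 0 lower. The part of these cell types and of the heat shock genes in the result was not tested.

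**Figure D2:**
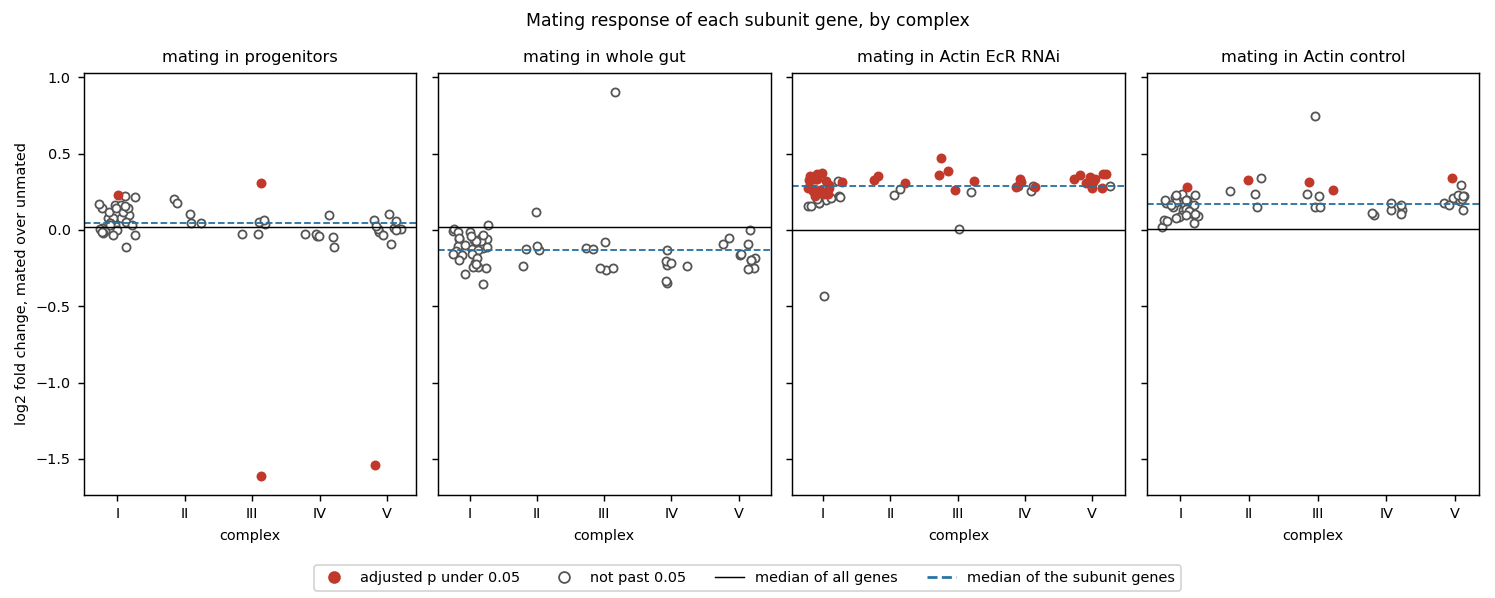
Log2 fold change of each tested subunit gene, mated over unmated (vertical axis), by complex, in the 4 kinds of material, with filled points for adjusted p under 0.05, a solid line at the median of all genes and a dashed line at the median of the members. The dashed line lies at 0.29 in guts labelled EcR RNAi and 0.17 in Actin controls, at 0.04 in progenitors and at -0.13 in whole guts (0.09 with library totals), and the low points in progenitors are UQCR-11L and ATPsynbetaL.

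In Actin controls the members leaned the same way by less. All 63 had a log2 fold change above 0, as had 51.7% of all genes, and the median was 0.17 against 0.01 over all genes. Past the threshold 5 rose, where 2.95% of all genes rose, and 0 fell, where 3.92% of all genes fell. At an unadjusted p under 0.05, 32 members were higher, where 24% of all genes were changed, and 11 had mated libraries above all unmated ones, where 6.88% of all genes did. UQCR-6.4 had 67.7, 67.1, 69.4 and 73.8 CPM in mated Actin controls, against 56.4, 51.5, 55.2 and 60.7 CPM in unmated Actin controls (log2 fold change 0.31, SE 0.07, adjusted p = 0.0168). ND-13A had 49.1, 52.9, 51.7 and 55.9 CPM in mated Actin controls, against 41.0, 40.8, 44.4 and 46.3 CPM in unmated Actin controls (log2 fold change 0.28, SE 0.07, adjusted p = 0.0221). Both genes had no overlap between groups. ATPsynC, with 1719, 1944, 1946 and 2089 CPM in mated Actin controls, against 1423, 1514, 1563 and 1581 CPM in unmated Actin controls (log2 fold change 0.34, SE 0.08, adjusted p = 0.0244), was apart as well. SdhA had 316, 351, 400.4 and 407 CPM in mated Actin controls, against 267, 298, 313 and 298 CPM in unmated Actin controls (log2 fold change 0.33, SE 0.09, adjusted p = 0.0371), and UQCR-C1 had 582, 651, 659 and 688 CPM in mated Actin controls, against 523, 533, 559 and 540.5 CPM in unmated Actin controls (log2 fold change 0.26, SE 0.07, adjusted p = 0.0478). All mated values of both genes lay above all unmated ones, and mated library 1 was the lowest of its group for each.

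ATPsynbeta, with 1961, 2168, 2176 and 2354 CPM in mated Actin controls, against 1772, 1802, 1791 and 1711 CPM in unmated Actin controls, had no overlap either and missed the threshold (log2 fold change 0.29, SE 0.09, adjusted p = 0.0526). In complex IV the response was small, with 0 of 7 genes called by edgeR, 0 at an unadjusted p under 0.05 and log2 fold changes of 0.10 to 0.18. Without unmated library 2, 0 of these 5 calls were left. Without mated library 2 or 3 or unmated library 1 only UQCR-6.4 stayed, 2 stayed without mated library 4 or unmated library 3, 3 without unmated library 4 and all 5 without mated library 1. Where the 2 control groups were fitted alone edgeR called 0 members, with DESeq2 at 14 in the full design.

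Whether EcR RNAi altered the mating response was tested as an interaction, the response in guts labelled EcR RNAi minus that in Actin controls. By edgeR 0 of 9036 genes and 0 members passed, with 727 genes, 8.05% of those tested, and 1 member at an unadjusted p under 0.05, and DESeq2 called 1 gene and 0 members. The 1 member was ND-15, with a difference of 0.21 (SE 0.09, unadjusted p = 0.0364, adjusted p = 0.595). For UQCR-6.4 the difference was 0.16 (SE 0.10), for ATPsynbeta 0.04 (SE 0.12) and for SdhA -0.02 (SE 0.12). The median over members was 0.13, against 0.00 over all genes, and 58 of 63 were above 0, as were 49.6% of all genes. The larger count of calls in guts labelled EcR RNAi is therefore not shown to be a larger response.

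The libraries labelled EcR RNAi and their controls were also set against each other within a mating state. In unmated guts 5 of 63 members were above 0, as were 49% of all genes, and the median was -0.08. The 1 member called was UQCR-11L, which was higher, where 7.95% of all genes were higher and 7.24% lower. It had 5.21, 3.94, 5.11 and 4.40 CPM in unmated guts labelled EcR RNAi, against 2.34, 1.86, 2.98 and 2.45 CPM in unmated Actin controls (log2 fold change 0.95, SE 0.25, adjusted p = 0.0194), without overlap. A further 8 members had every library labelled EcR RNAi below every control, where 10.2% of all genes did, namely UQCR-14, UQCR-6.4, SdhB, ND-PDSW, ND-SGDH, COX5A, ND-30 and ND-51. They did not pass the test. The lowest adjusted p among these 8 was 0.0637, for UQCR-6.4, at a log2 fold change of -0.20. Visceral muscle markers summed to 2150.1 to 2901 CPM in unmated guts labelled EcR RNAi and 3068 to 4093 CPM in unmated controls, with 8 of 13 lower, and their part here was not tested. In mated guts edgeR called 0 members, where it called 8.52% of all genes. At an unadjusted p under 0.05, which 20.6% of all genes had, ND-B16.6 (0.18) and ND-13B (0.19) were higher, DESeq2 called 1, and the median was 0.03.

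In sorted progenitors, where mating changed 40.2% of all genes, most members stayed close to 0. The median log2 fold change of the 63 tested members was 0.04, against 0.02 over all genes, and 42 were above 0, as were 52.2% of all genes. Called were 2 higher members, where 19.1% of all genes rose, and 2 lower ones, where 21.1% fell. These shares were below the background in both directions. ND-49 (4:568296-571554, minus strand), a core subunit of complex I at the ubiquinone site, had 257, 264, 259.9 and 271 CPM in mated progenitors, against 206, 237, 235 and 219 CPM in unmated progenitors (log2 fold change 0.23, SE 0.06, adjusted p = 0.02). Its mated libraries were close together and all above the unmated ones. UQCR-11 (3L:25120709-25126171, plus strand), a small subunit of complex III, had 64.7, 68.0, 76.1 and 79.9 CPM in mated progenitors, against 49.3, 62.6, 61.5 and 59.9 CPM in unmated progenitors (log2 fold change 0.31, SE 0.10, adjusted p = 0.0333), also without overlap. Another 4 members, ND-13B, ND-75, ND-MWFE and ND-51, had non-overlapping higher mated libraries but no call, so that 6 in all were apart, where 21.5% of all genes were.

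Both lower members were the copies. UQCR-11L had 0.451, 0.210, 0.188 and 0.196 CPM in mated progenitors, against 0.927, 0.963, 0.452 and 0.957 CPM in unmated progenitors (log2 fold change -1.61, SE 0.40, adjusted p = 0.0143), and the highest mated library lay just below the lowest unmated one. ATPsynbetaL (3L:16097834-16100088, plus strand) had 0.751, 1.14, 1.045 and 0.448 CPM in mated progenitors, against 3.58, 1.96, 0.958 and 3.38 CPM in unmated progenitors (log2 fold change -1.54, SE 0.45, adjusted p = 0.025). Unmated library 3 was within the range of the mated libraries, so these groups overlapped. Each rests on few counts. UQCR-11L alone stayed called with any single library left out. ND-49 was lost without unmated library 4. UQCR-11 was lost without mated library 2, 3 or 4 or unmated library 1 or 4, ATPsynbetaL without mated library 1 or 4 or unmated library 1 or 4, and with unmated libraries 1 and 4 both left out 0 members were called. Heat shock genes were high in unmated progenitors. Their sum lay between 5526 and 9265 CPM in mated progenitors, against 20518 to 78859.9 CPM in unmated progenitors, with 13 of 13 lower after mating. Their part in the result was not tested.

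The subunits that mtDNA encodes went another way. Of 13, 9 were lower in mated progenitors, where 21.1% of all genes were lower, and 0 higher, where 19.1% were. With unmated libraries 1 and 4 left out 7 were called, and with library totals 5. mt:ND5 of complex I had 279, 254, 267 and 233 CPM in mated progenitors, against 484, 428, 336 and 408 CPM in unmated progenitors (log2 fold change -0.68, SE 0.11, adjusted p = 0.00382). mt:CoI, the catalytic subunit of complex IV, had 3429.7, 3422, 3404 and 3109.8 CPM in mated progenitors, against 5381, 4892, 4016 and 4726 CPM in unmated progenitors (log2 fold change -0.51, SE 0.09, adjusted p = 0.00487), and mt:Cyt-b of complex III had 1958, 1967, 2016 and 1878 CPM in mated progenitors, against 2925, 2598, 2248 and 2183 CPM in unmated progenitors (log2 fold change -0.35, SE 0.09, adjusted p = 0.0198). None of the 3 genes had overlapping groups. Counts of the 13 per count of the 63 nuclear members lay between 0.862 and 1.00 in mated progenitors, against 1.15 to 1.66 in unmated progenitors, a ratio that does not depend on scaling. The libraries are poly(A)-selected, so the levels of mtDNA transcripts also pass through their own polyadenylation. Genes for mtDNA upkeep and mitochondrial biogenesis rose in 5 of 10 cases, where 19.1% of all genes rose. Among them was TFAM, which packages mtDNA, with 101, 102, 96.6 and 107 CPM in mated progenitors, against 73.5, 84.6, 86.6 and 83.0 CPM in unmated progenitors (log2 fold change 0.31, SE 0.07, adjusted p = 0.00945), and without overlap. With library totals in place of TMM the median of all genes in progenitors moved to 0.26 and that of the members to 0.28. On that scale 28 members were called higher and 2 lower. Relative to all genes the members were at 0.02 either way, a value that a change of scaling can hardly alter.

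**Figure D3:**
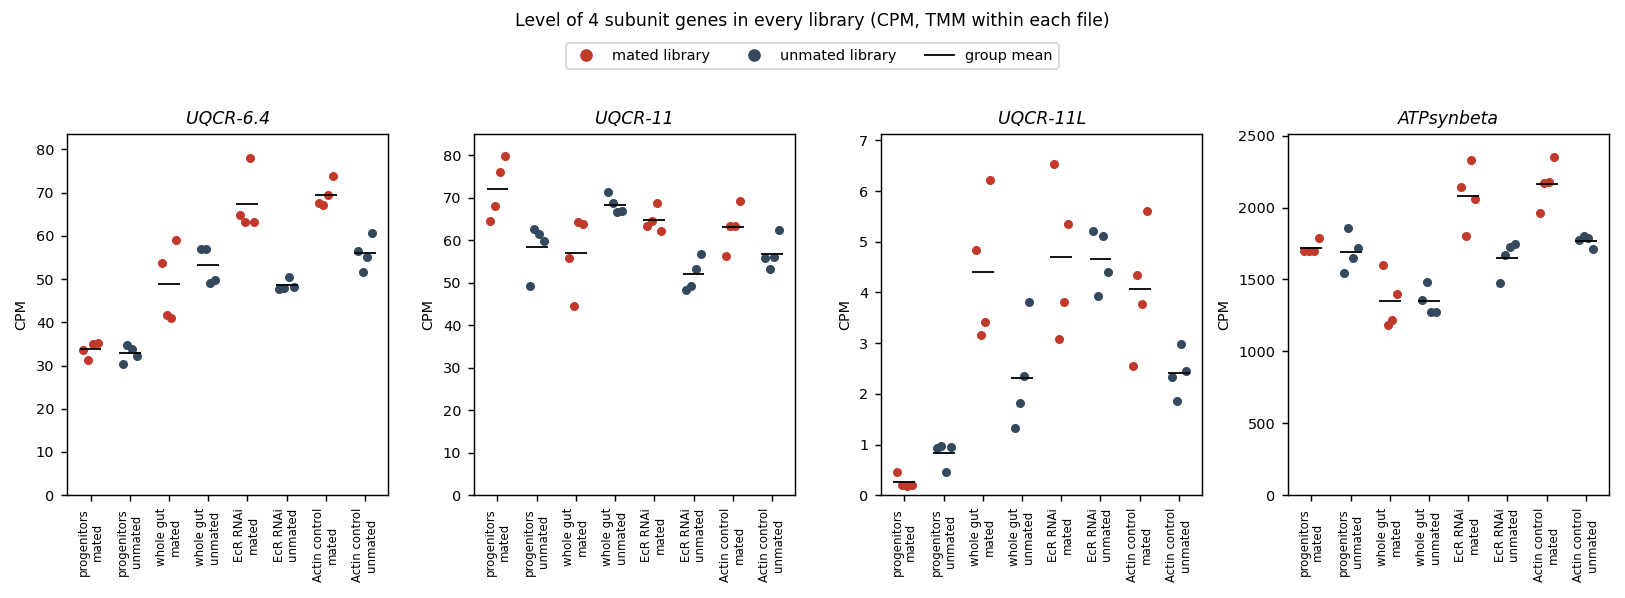
Level of UQCR-6.4, UQCR-11, UQCR-11L and ATPsynbeta in every library (CPM scaled by TMM within each table, axes starting at 0), by group, with 1 point per library and a bar at the group mean. UQCR-11 lies higher and UQCR-11L lower in mated than in unmated progenitors, and in whole guts both lean the other way, with all 4 mated whole guts at 44.5 to 64.4 CPM of UQCR-11 and all 4 unmated ones at 66.6 to 71.3 CPM.

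In whole guts of esg-Gal4 flies mating left 0 of 63 members called by edgeR, where 4.26% of all genes were called. At an unadjusted p under 0.05, 5 were lower and 1 higher, where 16.5% of all genes changed, and DESeq2 called 1 lower. The members' median was -0.13, against 0.02 over all genes, and 5 of 63 were above 0, as were 54% of all genes. Non-overlapping lower mated libraries were found for 5 members, where 5.47% of all genes had them. Among these, COX6B of complex IV had 297, 264, 252 and 289.7 CPM in mated whole guts, against 331, 413, 331 and 329.8 CPM in unmated whole guts (log2 fold change -0.35, SE 0.12, adjusted p = 0.15), with unmated library 2 far above the others, and COX7A had 224, 203, 194 and 223 CPM in mated whole guts, against 259, 318, 249 and 239 CPM in unmated whole guts (log2 fold change -0.33, SE 0.12, adjusted p = 0.176). UQCR-11 had 55.8, 44.5, 64.4 and 63.9 CPM in mated whole guts, against 71.3, 68.9, 66.6 and 66.9 CPM in unmated whole guts (log2 fold change -0.26, SE 0.12, adjusted p = 0.333), and ND-B14.5A and SdhD were at -0.35 and -0.24. ATPsynbeta had 1598, 1182, 1217 and 1402 CPM in mated whole guts, against 1357, 1483, 1277 and 1277 CPM in unmated whole guts, a log2 fold change of 0.00, and its groups overlapped.

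With library totals in place of TMM, 48 of 63 members were above 0 in whole guts with a median of 0.09, beside 0.24 over all genes. Relative to all genes the median was -0.16 with TMM and -0.15 with library totals, a value that a change of scaling can hardly alter. The lower position is thus one relative to the other genes, and its sign as a level turns on the scaling. Without unmated whole gut library 2 the members' median was -0.07, both as a level and relative to all genes, and 14 of 63 were above 0. Marker genes of other cells moved in these libraries. Visceral muscle markers had sums between 1615 and 2067 CPM in mated whole guts, against 2824 to 2999.5 CPM in unmated whole guts, with 7 of 13 lower, and enterocyte markers between 36409 and 39655 CPM in mated ones, against 64593 to 87279 CPM in unmated ones, with 3 of 9 lower. Heat shock genes had overlapping sums, between 300.5 and 945 CPM in mated whole guts, against 692 to 1399 CPM in unmated whole guts, and 10 of 10 tested were below 0, with a median of -1.58 and 1 called lower. The part of these genes in the members' values was not tested.

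The 2 mating responses of esg-Gal4 flies were compared directly in a joint fit of progenitors and whole guts. The response in progenitors minus that in whole guts was above 0 for 61 of 63 members and for 49.3% of all genes, with a median of 0.23 against -0.01 over all genes. Higher were 6 members, where 9.06% of all genes were higher, and 1 was lower, where 12.2% were. The highest was UQCR-11, whose difference was 0.61 (SE 0.16, adjusted p = 0.0173), and the lowest its copy UQCR-11L, with -2.47 (SE 0.54, adjusted p = 0.00703). UQCR-11L had 4.84, 3.16, 3.42 and 6.22 CPM in mated whole guts, against 1.32, 1.81, 2.35 and 3.80 CPM in unmated whole guts, with overlap, opposite in lean to its progenitor values. The other 5 were ND-B22, ND-MWFE, SdhD, ND-B18 and ND-13B, 4 accessory subunits of complex I and a membrane anchor of complex II, with differences of 0.48, 0.42, 0.38, 0.37 and 0.36. For example, ND-MWFE had 36.2, 38.7, 38.7 and 39.1 CPM in mated progenitors, against 32.5, 34.8, 35.5 and 34.2 CPM in unmated progenitors, and 40.8, 32.2, 33.6 and 42.9 CPM in mated whole guts, against 41.4, 48.6, 42.6 and 42.2 CPM in unmated whole guts. It was apart in progenitors and leaned down with overlap in whole guts.

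UQCR-11 and UQCR-11L were the 2 members called whichever of the 16 libraries was left out. The other 5 were all lost when whole gut mated library 2, progenitor mated library 4, progenitor unmated library 1 or progenitor unmated library 4 was left out, and between 3 and 7 members were called without any 1 of the other 12 libraries. With progenitor unmated libraries 1 and 4 both left out, 1 member stayed. With library totals 1 was called. The median relative to all genes was then 0.23, a value that a change of scaling can hardly alter. The mtDNA-encoded subunits ran the other way, with a median difference of -0.34. Of the 13, 2 were called lower, where 12.2% of all genes were, and 0 higher. Neither call was secure, as 0 were called in 10 of the 16 fits with 1 library left out, with the replicate number as a block, and without progenitor unmated libraries 1 and 4.

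Levels in progenitors were set against whole guts on a joint scale, with material, sorting and any batch of either count table not separable. On this scale 59 of 63 members were lower in unmated progenitors than in unmated whole guts and 0 higher, where 38.8% of all genes were lower and 42.2% higher, and 60 had no overlap, where 36.1% of all genes had none in this direction. In mated libraries 54 were lower and 0 higher, where 39.7% of all genes were lower and 43.2% higher, and 53 had no overlap, against 37.4% of all genes. The median of the members was -0.94 in unmated and -0.67 in mated libraries, beside 0.09 and 0.10 over all genes. Library totals in place of TMM moved the median of all genes to 0.65 and 0.63 and gave 40 lower and 8 higher members in unmated and 25 lower and 11 higher in mated libraries. Relative to all genes, the members' median in unmated libraries was -1.03 with TMM and -1.01 with library totals. In mated libraries it was -0.77 and -0.76. Scaling shifts all genes of a library together, so this relative value could hardly change, and its likeness is no check of the result. The position below 0 of single members did turn on the scaling.

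The distance was uneven across the complexes. It was largest in complex IV, with medians of -1.17 in unmated and -0.95 in mated libraries. On the joint scale COX4 had 217, 238, 233 and 229 CPM in unmated progenitors, against 606, 792, 577 and 531 CPM in unmated whole guts (log2 fold change -1.45, SE 0.11, adjusted p = 6.29e-09), and in mated libraries 213, 222, 229.5 and 237 CPM in mated progenitors, against 576, 504, 479 and 553 CPM in mated whole guts (log2 fold change -1.23, SE 0.11, adjusted p = 3.99e-08). Progenitors were below every whole gut library in both states. Complex III had medians of -1.08 and -0.87, and the accessory subunits of complex I -0.99 and -0.78, with ND-B14.5A at -1.56 and -1.13. Smaller distances were found for the core of complex I, with -0.51 and -0.40, and for F1, with -0.31 and -0.18. With library totals COX4 was still lower, at -0.88 in unmated and -0.69 in mated libraries, whereas ND-20 of the complex I core and ATPsynbeta of F1 turned above 0, at 0.33 each in unmated and 0.43 and 0.36 in mated libraries. Across the 61 members that are not copies, values were higher for genes with longer exons (Spearman rho 0.51 unmated, 0.48 mated). The part of exon length in the differences between complexes was not tested.

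Within complex II catalytic and anchor subunits parted. The succinate-oxidising SdhA had 288, 321, 302 and 291 CPM in unmated progenitors, against 327, 347, 345 and 323 CPM in unmated whole guts (log2 fold change -0.16, SE 0.08, adjusted p = 0.0643), and in mated libraries 309.5, 312, 307 and 326 CPM in mated progenitors, against 335, 296, 279.6 and 295 CPM in mated whole guts (log2 fold change 0.06, SE 0.08, adjusted p = 0.494). Neither comparison was called, and with library totals the unmated value was 0.41. The membrane anchor SdhD had 44.6, 53.2, 52.3 and 51.2 CPM in unmated progenitors, against 113, 134, 116 and 108 CPM in unmated whole guts (log2 fold change -1.23, SE 0.09, adjusted p = 2.94e-09), and 53.0, 51.1, 54.1 and 61.0 CPM in mated progenitors, against 105, 92.7, 94.3 and 102 CPM in mated whole guts (log2 fold change -0.85, SE 0.09, adjusted p = 2.07e-07), with no overlap in either state. SdhC, the other anchor, was at -1.25 and -0.90 and SdhB at -0.41 and -0.20. The rotor ring gene ATPsynC was nearer to 0 than the median of its complex, -0.67 in unmated and -0.45 in mated libraries, with 1466, 1706, 1631 and 1628 CPM in unmated progenitors, against 1685, 1980.1, 1784 and 1589 CPM in unmated whole guts (log2 fold change -0.13, SE 0.10, adjusted p = 0.245) and a value of 0.08 in mated libraries (adjusted p = 0.449), and ND-ACP, which also serves fatty acid synthesis, was at -0.02 and -0.04. Neither gene was called in either state.

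**Figure D4:**
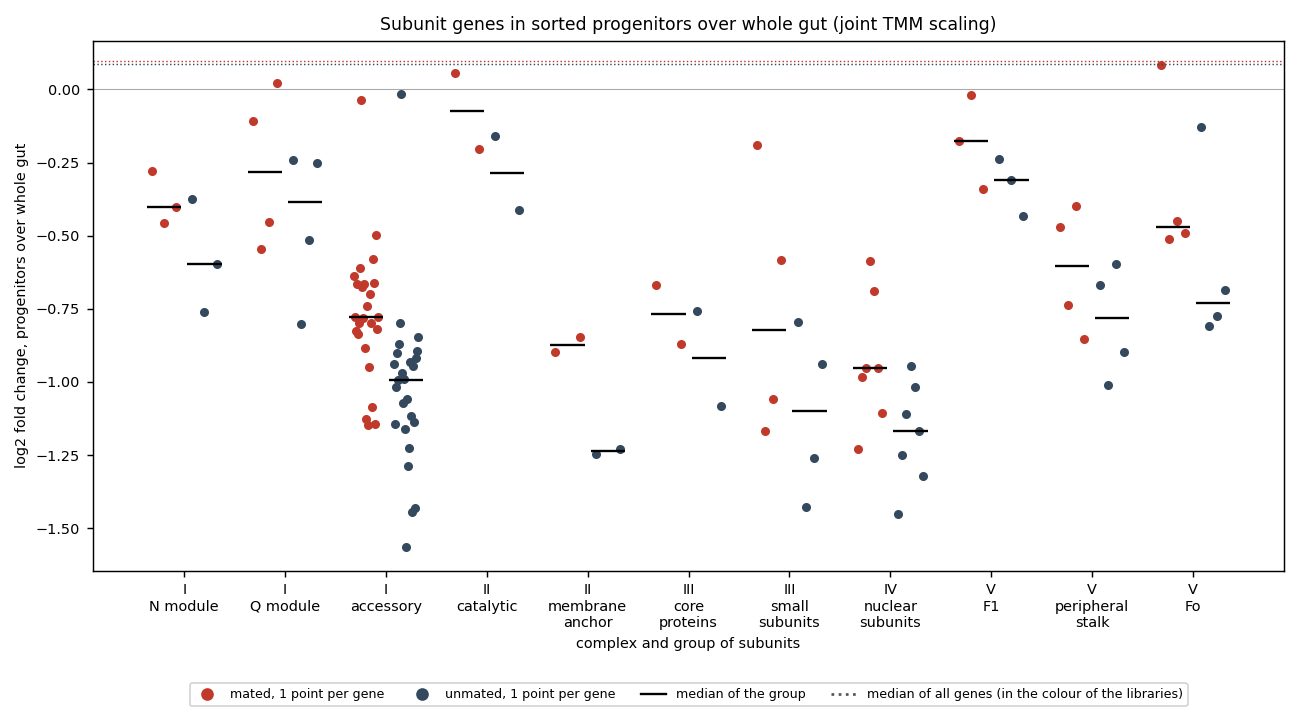
Log2 fold change of each subunit gene in progenitors over whole guts (vertical axis, joint TMM scaling) by complex and group of subunits, mated and unmated libraries side by side, with bars at the median of each group of genes and dotted lines at the median of all genes. The copies ND-51L1 and UQCR-11L and the assembly factor Sdhaf3 are left out, and the complex IV points lie between -0.59 and -1.45.

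The order of the members was alike in both mating states. Across the 61 members that are not copies, the unmated and mated log2 fold changes had a Pearson r of 0.95 and a Spearman rho of 0.93. This is a description over genes, with both mating states read from the same 2 count tables. The copies were far lower in progenitors, ND-51L1 at -3.72 and -3.51 and UQCR-11L at -2.07 and -4.55 in unmated and mated libraries, all of them called. ND-51L1 had only 12 counts over unmated and 16 over mated progenitor libraries, against 55 and 79 in whole guts. It passed the filter of the joint fit through whole guts, where it is high. Its calls, which are among the lower members counted above, were thus largely set by the filter and are no result.

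The make-up of the members' own transcripts, which needs no scaling between libraries, differed in the same way. Complex IV took 11.6% ± 0.188 of the counts of the 63 members in mated progenitors and 11.996% ± 0.300 in unmated progenitors, against 16.0% ± 0.331 in mated whole guts and 17.1% ± 0.400 in unmated whole guts (SD, n = 4 each). The accessory subunits of complex I took 15.4% ± 0.113 and 15.3% ± 0.124 in mated and unmated progenitors, against 18.8% ± 0.219 and 18.8% ± 0.360 in mated and unmated whole guts. Shares were higher in progenitors for F1, at 19.5% ± 0.494 and 19.6% ± 0.335, against 16.0% ± 0.531 and 14.9% ± 0.472 in mated and unmated whole guts, and for complex II, at 6.29% ± 0.135 and 6.12% ± 0.181, against 5.49% ± 0.159 and 5.51% ± 0.152. All progenitor libraries were on 1 side of all whole gut libraries for each of these 4 shares. The part of exon length in these shares was not tested.

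Smaller shifts of the make-up came with mating. Complex IV was at 16.0% ± 0.331 in mated and 17.1% ± 0.400 in unmated whole guts, with every mated library below every unmated one, and at 14.68% ± 0.243 in mated and 15.6% ± 0.349 in unmated Actin controls, again without overlap. In guts labelled EcR RNAi it was 15.0% ± 0.234 in mated and 15.1% ± 0.162 in unmated libraries, and these overlapped. Complex V took 44.1% ± 0.383 in mated and 42.4% ± 0.636 in unmated Actin controls, with no overlap, and 44.4% ± 0.644 in mated and 43.3% ± 0.530 in unmated guts labelled EcR RNAi, with overlap. The core of complex I took 10.2% ± 0.210 in mated and 9.53% ± 0.170 in unmated progenitors, with every mated library above every unmated one. In the Actin set it lay the other way, with every mated library below every unmated one, at 7.98% ± 0.0950 in mated and 8.55% ± 0.174 in unmated guts labelled EcR RNAi and at 8.29% ± 0.0757 in mated and 8.62% ± 0.136 in unmated Actin controls. None of these shares was tested.

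**Figure D5:**
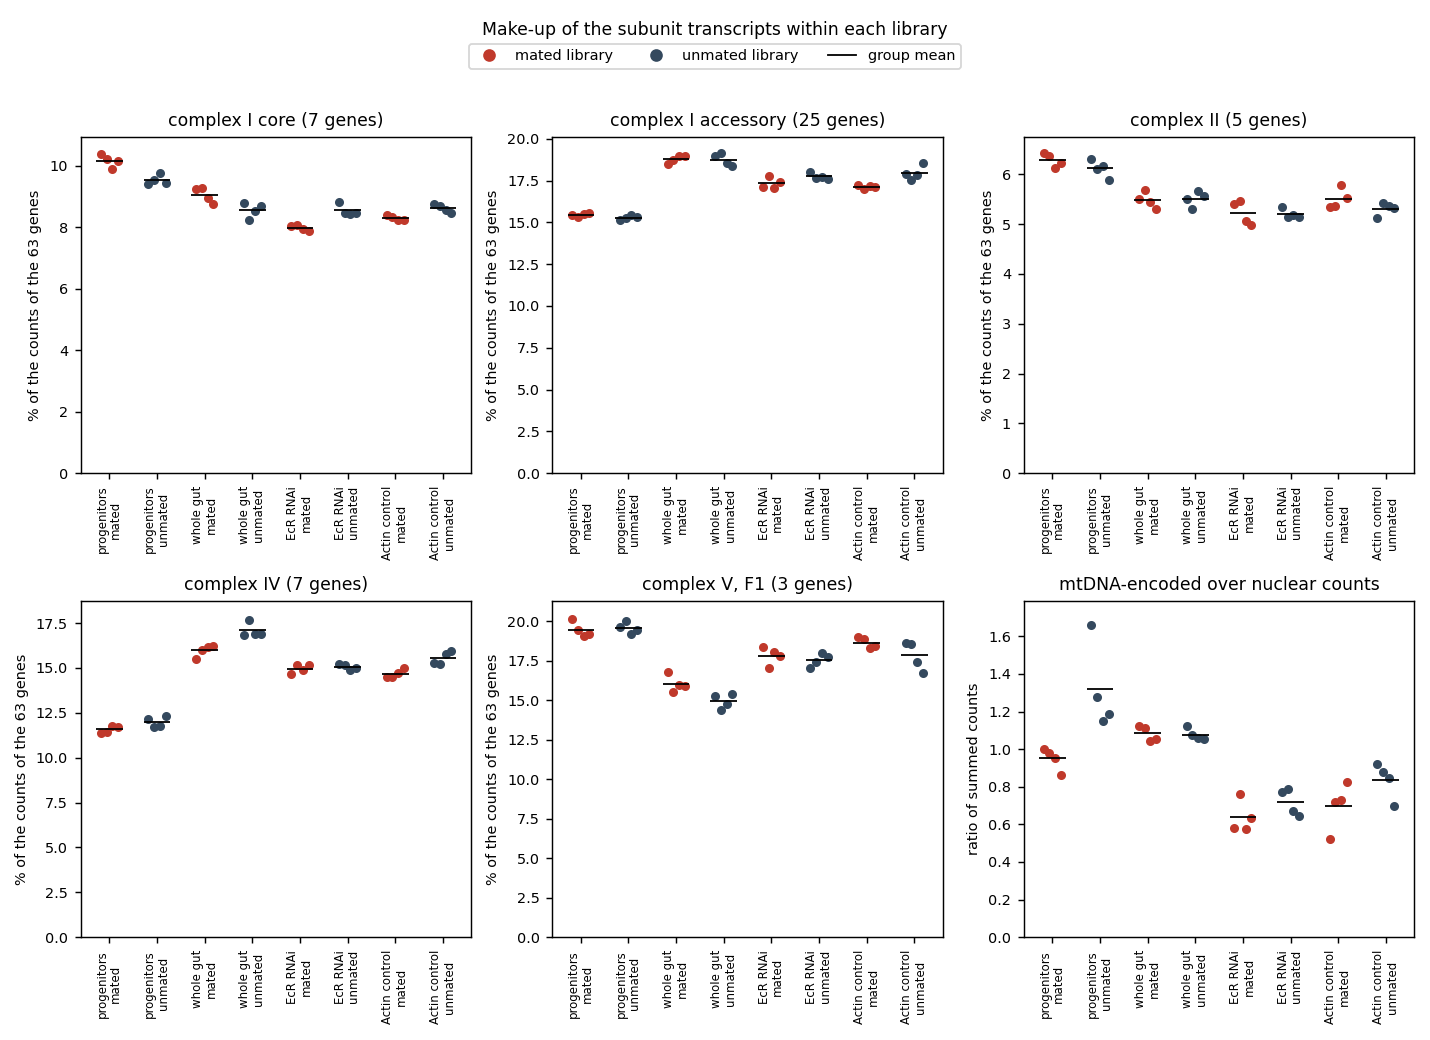
Share of the counts of the 63 members that each group of subunits took in every library (vertical axes in percent, starting at 0), and counts of the 13 mtDNA-encoded subunits per count of the members (last panel), with 1 point per library and a bar at the group mean. Progenitors hold smaller shares of complex IV and accessory complex I and larger shares of F1, complex II and core complex I transcripts than whole guts, and unmated progenitors have the highest mtDNA-encoded ratio, 1.15 to 1.66.

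Other genes of the pathway, from lists chosen by function, were read in the same fits. In Actin guts the electron carrier Cyt-c-p changed more than any called member. It had 491, 399.7, 579 and 533 CPM in mated guts labelled EcR RNAi, against 225, 250.1, 291 and 325 CPM in unmated guts labelled EcR RNAi (log2 fold change 0.88, SE 0.12, adjusted p = 0.0011), and 413, 428, 409.7 and 435 CPM in mated Actin controls, against 267, 251, 273 and 289 CPM in unmated Actin controls (log2 fold change 0.64, SE 0.12, adjusted p = 0.00689). Neither genotype had overlapping groups. The alpha subunit of ATP synthase, blw, rose in guts labelled EcR RNAi by 0.29 and in Actin controls by 0.33. In guts labelled EcR RNAi the complex III subunits ox, RFeSP and Cyt-c1 also rose, by 0.44, 0.37 and 0.29. By edgeR and by DESeq2, 0 of 13 mtDNA-encoded subunits were called in either, with 0 in guts labelled EcR RNAi and 1 lower in Actin controls at an unadjusted p under 0.05. Their medians were 0.15 in guts labelled EcR RNAi and -0.06 in Actin controls.

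Of 18 enzymes of the TCA cycle tested, which feeds the chain with NADH and succinate, 6 rose and 0 fell in guts labelled EcR RNAi and in Actin controls alike. Of all genes, 5.37% rose and 5.41% fell in guts labelled EcR RNAi, and 2.95% rose and 3.92% fell in Actin controls. Citrate synthase, kdn, had 994, 818, 1059 and 1093 CPM in mated guts labelled EcR RNAi, against 527, 511, 618 and 766 CPM in unmated guts labelled EcR RNAi (log2 fold change 0.71, SE 0.13, adjusted p = 0.00411), and 753, 864, 806 and 883 CPM in mated Actin controls, against 619, 565, 485 and 530.2 CPM in unmated Actin controls (log2 fold change 0.59, SE 0.13, adjusted p = 0.0141), without overlap in either genotype. The ADP/ATP carrier sesB, which exchanges the ATP made by complex V for cytosolic ADP, had log2 fold changes of 0.46 in guts labelled EcR RNAi and 0.51 in Actin controls, called in both. In progenitors 2 of 19 TCA cycle enzymes rose, where 19.1% of all genes rose, and 2 fell, where 21.1% fell. In whole guts edgeR called 0 of 18, where 4.26% of all genes were called. At an unadjusted p under 0.05 there were 3, where 16.5% of all genes changed.

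In progenitors against whole guts the related lists lay on both sides. Of all genes, 42.2% were higher and 38.8% lower in unmated libraries, and 43.2% were higher and 39.7% lower in mated ones. Genes of mitochondrial biogenesis and mtDNA upkeep were higher in 9 of 10 cases in unmated and 10 of 10 in mated progenitors, with medians of 1.56 and 1.64. Mitochondrial chaperones were higher in 4 of 5 cases in both states. The minor ADP/ATP carrier Ant2 was at 2.82 and 2.55. Of the TCA cycle, 12 of 19 enzymes in unmated and 11 of 19 in mated libraries were lower, with 1 higher in each. Of the mtDNA-encoded subunits, 11 of 13 in unmated and 12 of 13 in mated progenitors were lower with TMM, while library totals gave 2 lower and 2 higher in unmated and 8 lower and 1 higher in mated progenitors.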

How the data were processed

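Gene expression was measured by RNA-seq of poly(A)-selected RNA with a directional library kit, per the labels' protocols. The authors deposited whole-number read counts per gene, 1 table each for whole guts, progenitors and Actin guts, which were used as deposited. STAR, HTSeq, DESeq2 and the builds BDGP6 and dm6 are named in the submitters' processing notes, and no version, strand setting or treatment of multiply mapped reads was found in the labels or files. Of 47 samples 32 were analysed, and the 15 Myo1A-Gal4 samples were not, because their table repeats the columns of the whole gut table, value for value. In the tables used, 16 columns that no label names were left out. Rows of transposable elements (501, 1059 and 594 rows in the whole gut, progenitor and Actin tables, 0.031% to 0.22% of the counts of a library) stayed out of library sizes and tests.

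The tests were run with edgeR 4.0.16 under R 4.3.3: filterByExpr (minimum count 10, minimum total 15), TMM scaling, a robust quasi-likelihood F test and Benjamini-Hochberg adjustment over all genes tested, at a threshold of 0.05. The SE of a log2 fold change is its size divided by the square root of F. The 4 Actin groups were fitted together, progenitors and whole guts each alone, and both jointly on their 9942 shared genes for comparisons between them. The replicate numbers of the labels were not used to pair libraries, since not every same-numbered pair of any 2 groups deviated together. This does not exclude that same-numbered libraries share a batch. Levels per kilobase use exon lengths of the BDGP6.54 annotation, in which all 70 symbols were found, and 34 of the 70 overlap an exon of another gene. The procedure was tested on simulated data. Alternatives were DESeq2 1.42.0, other scalings and filters, a replicate block, leaving out single libraries and, chosen after seeing the data, library totals. The mtDNA-encoded subunits were also set apart as a group after their values were seen.

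The members and gene lists were chosen with earlier results of these data known. Genes were named by a rule: the catalytic and cofactor-bearing core whatever its values, the 5 highest and 5 lowest called members of a comparison, the highest and lowest level per complex, copies with their originals, members without a test or with groups apart, and, of related lists, the rest of the chain and the called genes of smallest adjusted p. A selection of these is printed.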

Additional observations from a re-analysis of the deposited data

Results flagged for a closer look

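Single libraries stood apart from the other 3 of their group, by the gap to the nearest value over the range of the group, in 16 of 266 groups of 4 values examined, and chance gives about 1 in 20. Unmated whole gut library 2 was the high one for ND-75 (323 CPM), ATPsyngamma (474 CPM), COX6B (413 CPM) and ND-13A (54.2 CPM). Unmated progenitor library 1 was the low one for ND-75 (236 CPM), SdhD (53.3 CPM) and UQCR-C2 (253 CPM), and mated progenitor library 4 the high one for ATPsynbeta (1790 CPM) and ND-15 (73 CPM). UQCR-11L stood out high in mated progenitor library 1 (0.451 CPM) and low in unmated progenitor library 3 (0.452 CPM). Of the libraries labelled EcR RNAi, mated library 3 was high for ND-24 (110 CPM) and UQCR-6.4 (77.9 CPM), unmated library 3 high for UQCR-6.4 (50.6 CPM), and unmated library 1 low for the sum of complex III (1170 CPM). The mtDNA-encoded sum was low in unmated Actin control library 4 (9500 CPM).

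The mating response differed between progenitors and whole guts, by the joint-model test of the difference on the log2 scale, for UQCR-11 (0.61), ND-B22 (0.48), ND-MWFE (0.42), SdhD (0.38), ND-B18 (0.37), ND-13B (0.36) and UQCR-11L (-2.47). These were 6 of 63 members higher, where 9.06% of all genes were, and 1 lower, where 12.2% were. Only UQCR-11 and UQCR-11L stayed called whichever of the 16 libraries was left out, and ND-B22 stayed in 2 of these 16 fits.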

How the results depend on the processing

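Of the comparisons of an alternative with the reported value of a named gene, 3610 kept the side of the threshold and, where called, the direction, or moved by under 1 SE where not called, 295 lost the threshold, 59 gained it, 44 that were not called moved by more and 18 turned sign. These 18 were called with TMM or with library totals, all in progenitors against whole guts. In unmated libraries these were ATPsynbeta 0.33, SdhB 0.15, ATPsyngamma 0.14, ATPsyndelta 0.26, ND-20 0.33, ND-24 0.19, ND-49 0.31, SdhA 0.41 and ND-30 0.0604, and in mated ones ATPsynbeta 0.36, SdhB 0.34, ATPsynD 0.14, ND-75 0.14, ATPsyngamma 0.20, ND-20 0.43, ND-24 0.26, ND-51 0.0808 and ND-30 0.0891. Values called with neither were not counted as turned: library totals put 48 of 63 members above 0 for mating in whole guts, against 5 with TMM, and 48 for the interaction, against 58. Library totals also gave 952 called genes and a members' median of 0.0909 for mating in whole guts, 30 members and 0.278 in progenitors, 17 members and 0.184 in guts labelled EcR RNAi, 1 member for progenitors minus whole guts, and medians of -0.368 in unmated and -0.133 in mated progenitors against whole guts. DESeq2 called 681 genes and 1 member in whole guts, 1042 genes and 14 members in Actin controls, 1 member between mated libraries labelled EcR RNAi and controls, and 1 gene for the interaction. DESeq2 size factors in edgeR gave 3 members for progenitors minus whole guts. Upper quartile scaling gave 8 members in Actin controls and 4 between unmated libraries labelled EcR RNAi and controls. A minimum count of 50 gave 2 members in progenitors and 3 for progenitors minus whole guts. With only the compared groups fitted, 266 genes and 0 members were called in Actin controls and 484 genes between mated libraries labelled EcR RNAi and controls. Without unmated progenitor libraries 1 and 4, progenitors had 1302 genes and 0 members, and progenitors minus whole guts 692 genes and 1 member. The cause of these differences was not tested.

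With 1 library left out at a time, the counts of genes and of members and the members' median ran from 195 to 510, 0 to 0 and -0.223 to -0.0664 for mating in whole guts, from 2248 to 4304, 1 to 4 and -0.00878 to 0.0719 in progenitors, from 288 to 668, 0 to 8 and 0.128 to 0.216 in Actin controls, and from 449 to 1067, 5 to 48 and 0.242 to 0.322 in guts labelled EcR RNAi. For EcR RNAi against control they ran from 919 to 1292, 1 to 1 and -0.125 to -0.0555 in unmated and from 471 to 639, 0 to 0 and -0.0127 to 0.0745 in mated guts, and for the interaction from 0 to 0, 0 to 0 and 0.0755 to 0.18. For progenitors minus whole guts they ran from 1400 to 2542, 2 to 7 and 0.169 to 0.29, and for progenitors against whole guts from 7480 to 7594, 57 to 60 and -0.996 to -0.885 in unmated and from 7645 to 7794, 53 to 54 and -0.719 to -0.64 in mated libraries.

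Whether same-numbered libraries share more than a number was not settled. Their deviations correlated with r between -0.129 and 0.284, and no pair of groups had every r over 0.1. In the Actin set every same-numbered r was above 0, from 0.000475 to 0.266, but for some libraries a different number gave a higher r. With the replicate number as a block, 13 members were called in Actin controls, 54 in guts labelled EcR RNAi, 3 in unmated and 2 in mated libraries labelled EcR RNAi against controls, 5 in progenitors and 2 for progenitors minus whole guts, with 51 and 43 for unmated and mated progenitors against whole guts.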

Other observations

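Across the 61 members that are not copies, the log2 fold change of progenitors over whole guts was higher for genes with longer exons, with a Spearman rho of 0.51 in unmated and 0.48 in mated libraries. The same measure gave -0.53 for the interaction of EcR RNAi and mating. Mating responses of guts labelled EcR RNAi and of Actin controls, which share no library, had a Pearson r of 0.50 and a Spearman rho of 0.48 over these genes, and those of progenitors and whole guts had 0.20 and 0.17. Those of esg-Gal4 whole guts had 0.17 and 0.08 with Actin controls, and -0.37 and -0.42 with guts labelled EcR RNAi. These are descriptions over genes, which are not replicates, and all libraries of a set were scaled together.

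The members lie on chromosome arms 2L (13), 2R (15), 3L (13) and 3R (16), on chromosome 4 (2) and on X (11), so that the complexes are scattered through the genome. Their exons have a median length of 862 bp, from 443 to 3817 bp, and the longest belong to ATPsyndelta.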
